A study of Mus musculus with 7 samples.

Results

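The bone morphogenetic protein (BMP) ligands and antagonists examined here are 10 genes of the 24346 in the deposited table of hippocampal neurosphere RNA. They were taken by gene symbol and not by a cut on their values, though with earlier results of these data known. They are the ligands Bmp2, Bmp4, Bmp6 and Bmp7, the secreted antagonists Nog, Chrd, Grem1 and Fst, the membrane pseudoreceptor Bambi and the secreted modulator Twsg1. Hippocampal neural stem cells of C57/BL6 mice aged 2 months were grown into primary neurospheres, free-floating clusters of dividing cells, and RNA was sequenced in 7 libraries, each carrying the number of a mouse. The 4 control libraries (WT_215, WT_116, WT_213 and WT_220) have the genotype label wild type, and by the study's methods controls were littermates that were Med23 flox/+ or Med23 flox/flox. The 3 Med23 CKO libraries (KO_117, KO_214 and KO_218) came from Nestin-CreER:Med23 flox/flox mice, in which tamoxifen removes loxP-flanked exons of Med23, a subunit of the Mediator complex that links transcription factors to RNA polymerase II. Both groups received tamoxifen by gavage at 200 mg/kg daily for 5 days. The labels give 2 months as the age at treatment, and the methods give a month less for cultures. The Nestin promoter drives Cre in stem cells and, as the study states, in endothelial cells as well, and cells in which Cre is not active keep Med23. Med23 was not measured by cell type.

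BMPs are secreted dimers that bind type I and type II receptor kinases, which phosphorylate Smad1, Smad5 and Smad9, and these with Smad4 switch on targets such as the Id genes. Noggin, chordin, gremlin and follistatin bind ligands outside the cell and keep them from their receptors. In the adult hippocampus, BMP signaling is known to hold stem cells in quiescence and to favour astrocyte over neuronal fate, and Noggin counters it.

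Values are FPKM, fragments mapped to a gene, scaled to transcript length and to all mapped fragments of the library, so levels can be compared between genes. The depth of each library is unknown, and between 16841 and 18113 genes had a value above 0. Groups were compared by limma's moderated test on log2(FPKM + 1) over the 14151 genes with a mean of at least 0.5 FPKM, and a difference below is the Med23 CKO mean minus the control mean on that scale, which understates changes of low genes. Among those genes, 0 passed an adjusted p under 0.05 (limma, Benjamini-Hochberg), and 212 (1.5%) had an unadjusted p under 0.05. In 328 genes (2.32%) the 2 groups did not overlap. Values are listed throughout in the order WT_215, WT_116, WT_213, WT_220 for controls and KO_117, KO_214, KO_218 for Med23 CKO. Med23, the deleted gene, measured 11.4, 10.3, 12.9 and 10.1 FPKM across controls against 9.97, 9.27 and 8.12 FPKM across Med23 CKO, values over the whole gene that include exons left in place. All Med23 CKO libraries lay below all controls (difference -0.26, 95% interval -0.68 to 0.15, exact permutation p = 0.0571). Markers of neural stem cells (8 genes) were above 0 in every library. The marker sums of microglia and macrophages, endothelial cells, and mural cells and fibroblasts were highest in KO_214, which is why values without that library are given below.

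Of the 10 genes, 9 passed the filter and Grem1 did not. By limma, 0 of the 9 had an unadjusted p under 0.05, against the 1.5% of all genes, every adjusted p was 1, and in 0 of the 9 did the groups stand apart, against 2.32% of all genes. Their differences ran from -0.35 (Bmp7) to 0.46 (Bambi) with a median of -0.044, beside a median of -0.031 over all 14151 genes. The median over the 9 was -0.32 without KO_214 and 0.30 without KO_117.

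Bmp7 and Twsg1 stood far above the other members in level. In control libraries Bmp7 had 27.5 ± 19.2 FPKM (SD, n = 4) and Twsg1 had 21.7 ± 3.92 FPKM, and their ranges overlapped. Next came Bmp6 at 1.94 ± 0.989 FPKM, Bmp2 at 1.49 ± 1.01 FPKM, Bambi at 1.35 ± 0.464 FPKM and Chrd at 1.24 ± 0.477 FPKM, and each of these overlapped with its neighbours. Below them lay Bmp4 at 0.751 ± 0.499 FPKM, Nog at 0.663 ± 0.219 FPKM and Fst at 0.608 ± 0.111 FPKM, which overlapped as well, and Grem1 was lowest at 0.155 ± 0.246 FPKM. The gap between the 2 abundant genes and the other 8 held in every control library, where the lowest value of Bmp7 (9.78 FPKM) exceeded the highest value of Bmp6 (2.81 FPKM).

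On GRCm38, Bmp2 spans chr2:133552159-133562885, Bmp7 chr2:172868012-172940321 and Grem1 chr2:113746164-113758646, so 3 of the 10 lie on chromosome 2. Bmp6 spans chr13:38345107-38500302 and Fst chr13:114452290-114458951. Bmp4 spans chr14:46383520-46390669, Nog chr11:89300638-89302332, Chrd chr16:20733127-20742384 and Twsg1 chr17:65921972-65951226. Bmp2, Bmp6 and Chrd are on the forward strand and the other 6 placed here on the reverse strand, and each value covers the exons of the whole gene.

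**Figure D1:**
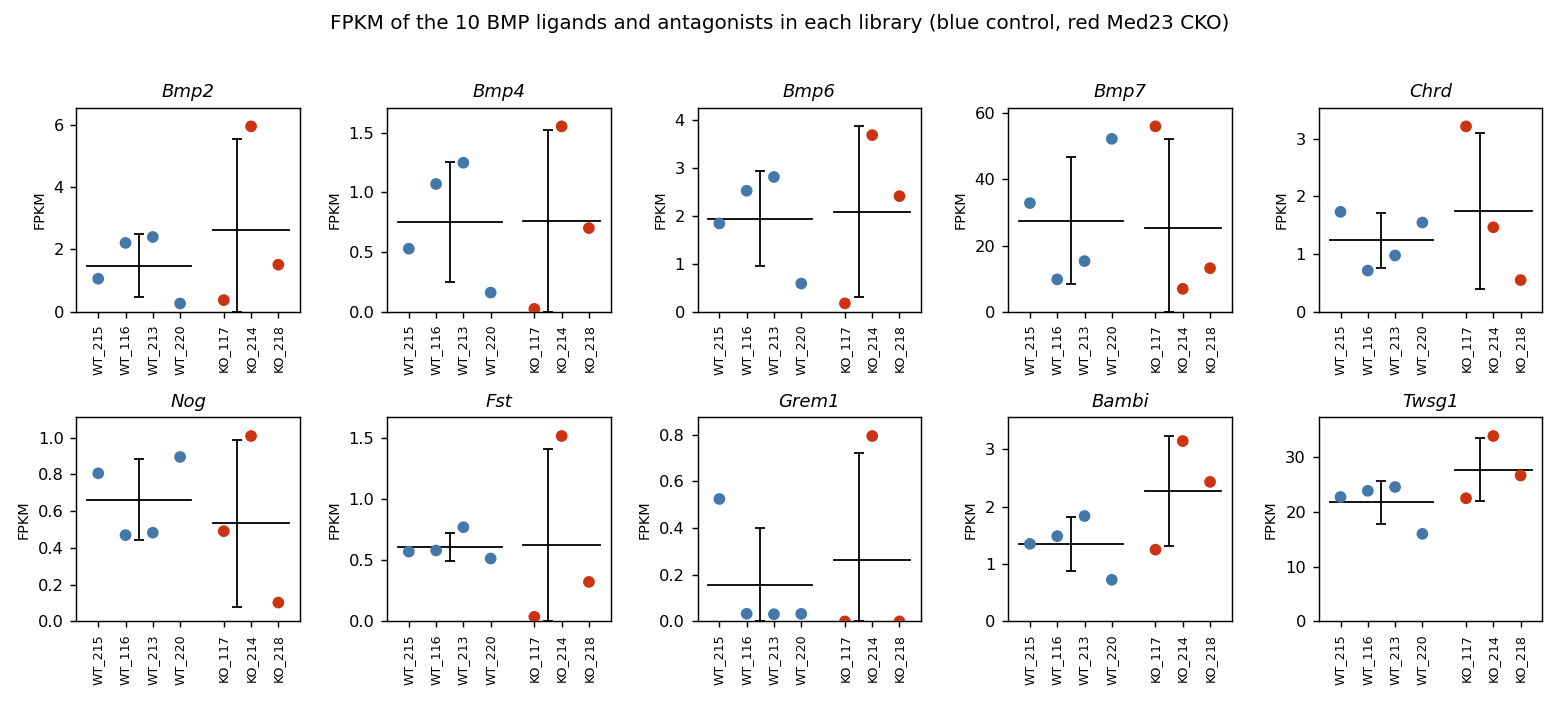
FPKM (vertical axes, from 0, a separate scale for each gene) of the 10 genes in 4 control (blue) and 3 Med23 CKO (red) libraries, with horizontal lines at group means and bars of 1 SD, drawn to 0 where they would pass below it. The groups overlap for every gene, and the library KO_214 has the highest value of Bmp2, Bmp4, Bmp6, Nog, Fst, Grem1, Bambi and Twsg1. It is the highest library for 3594 of all 14151 genes tested.

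The promoters of a pair of ligands that ran together across libraries, Bmp4 and Bmp6, and of Bmper, the tested gene among the other pathway genes whose groups stood apart (below), are shown as a reference for these genes. Promoters of 5 of the 10 genes (Bmp4, Bmp6, Chrd, Grem1 and Twsg1) were matched in RefSeq on GRCm38.p6. Each sequence holds the 250 bases before the transcript start and the 50 after it, 5′ to 3′ on the gene's strand. Capitals mark exact matches, on either strand, to 4 motifs that were searched: GGCGCC (a GC-rich Smad site), CCGGAA (Ets core), CACGTG (E-box) and GGGCGG (GC box). In the 3 sequences no match overlapped another.
Bmp4: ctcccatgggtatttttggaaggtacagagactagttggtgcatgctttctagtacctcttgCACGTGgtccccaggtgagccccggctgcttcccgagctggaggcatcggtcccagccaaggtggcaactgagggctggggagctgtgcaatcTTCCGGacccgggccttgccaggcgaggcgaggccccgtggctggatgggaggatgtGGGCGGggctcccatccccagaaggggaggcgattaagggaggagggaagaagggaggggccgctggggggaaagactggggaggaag
Bmp6: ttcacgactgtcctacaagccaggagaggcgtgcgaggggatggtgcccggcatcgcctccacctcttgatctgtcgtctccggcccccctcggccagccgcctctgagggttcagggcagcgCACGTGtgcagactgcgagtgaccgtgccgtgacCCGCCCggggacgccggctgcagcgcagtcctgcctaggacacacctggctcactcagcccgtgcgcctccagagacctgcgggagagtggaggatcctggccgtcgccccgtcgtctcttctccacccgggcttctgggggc
Bmper: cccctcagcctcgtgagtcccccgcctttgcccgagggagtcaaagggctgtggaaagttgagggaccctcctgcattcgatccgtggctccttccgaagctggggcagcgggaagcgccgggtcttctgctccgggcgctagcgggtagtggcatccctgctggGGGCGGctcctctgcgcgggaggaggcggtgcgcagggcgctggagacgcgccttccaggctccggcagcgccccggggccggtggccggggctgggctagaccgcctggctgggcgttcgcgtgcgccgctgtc
The Bmp4 window is chr14:46390620-46390919 on the reverse strand. The Bmp6 window is chr13:38345466-38345765 and the Bmper window chr9:23222826-23223125, both on the forward strand. Bmp4 and Bmp6 each held an E-box, whose first base was at position -188 and -127 from the start, in a set where 7.15% of 32851 promoters hold one. Bmp4 held in addition an Ets core (14.9% of promoters), and all 3 held a GC box (35.7% of promoters). The Smad site GGCGCC, found in 11.9% of promoters, matched in Chrd and Grem1 and in none of the windows of Bmp4, Bmp6 and Twsg1. GC content was 64% for Bmp4, 69.3% for Bmp6 and 72.7% for Bmper, against a median of 52.7%. The choice of genes shown and of motifs was made with the values known, and a match is a run of letters, not a measured site.

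Bmp7, a ligand of the 60A subgroup, had the highest control mean of the 10 genes, while Twsg1 exceeded it in 4 of the 7 libraries. It measured 32.8, 9.78, 15.3 and 52.2 FPKM across controls against 56.0, 6.93 and 13.2 FPKM across Med23 CKO. The highest and the lowest of the 7 values both belonged to Med23 CKO mice, so the control range lay inside the Med23 CKO range. The difference was -0.35 (95% interval -2.16 to 1.46, exact permutation test over the 35 splits, two-sided, p = 0.714). Its SD within groups was 1.22 on the log2 scale, larger than that of 95.7% of all genes tested, whose median was 0.378. With a pseudocount of 0.1, under which low genes spread more, the SE of the difference was 0.812 for Bmp7 and higher for Bmp4 (1.005), Bmp2 (0.997), Bmp6 (0.965) and Fst (0.822).

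Bmp2 and Bmp4 form the other classical subgroup, and among the member ligands Bmp6 is the closest relative of Bmp7. Bmp2 measured 1.06, 2.21, 2.40 and 0.267 FPKM across controls against 0.374, 5.95 and 1.51 FPKM across Med23 CKO. Bmp4 measured 0.528, 1.07, 1.25 and 0.160 FPKM across controls against 0.0243, 1.55 and 0.700 FPKM in Med23 CKO. Bmp6 measured 1.84, 2.52, 2.81 and 0.588 FPKM across controls against 0.175, 3.68 and 2.41 FPKM in Med23 CKO. All 3 ligands were highest in KO_214, then WT_213, WT_116, KO_218 and WT_215, and lowest in WT_220 and KO_117, so Bmp4 and Bmp6 put the 7 libraries in the same order and Bmp2 differed only in its lowest pair. The differences were 0.32 for Bmp2 (95% interval -1.06 to 1.70, exact permutation p = 0.714), -0.044 for Bmp4 (-0.92 to 0.83, p = 0.943) and -0.070 for Bmp6 (-1.29 to 1.15, p = 0.8286).

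Bmp7 went the other way across libraries. It was highest in KO_117 and WT_220, where Bmp2, Bmp4 and Bmp6 were lowest, and lowest in KO_214, where they were highest. Their summed level was 0.574 FPKM in KO_117, 1.02 FPKM in WT_220 and 11.2 FPKM in KO_214. Bmp7 made up 99.0% of the summed FPKM of the 4 ligands in KO_117, 98.1% in WT_220 and 90.5% in WT_215. It made up 74.0% in KO_218, 70.3% in WT_213, 62.8% in WT_116 and 38.2% in KO_214, where Bmp2 reached 32.9%. Both ends of this range were Med23 CKO libraries, and the 4 control libraries lay between them. These shares depend on all 4 genes at once and come from 7 bulk cultures, in which fewer cells of a type and less RNA per cell cannot be told apart.

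**Figure D2:**
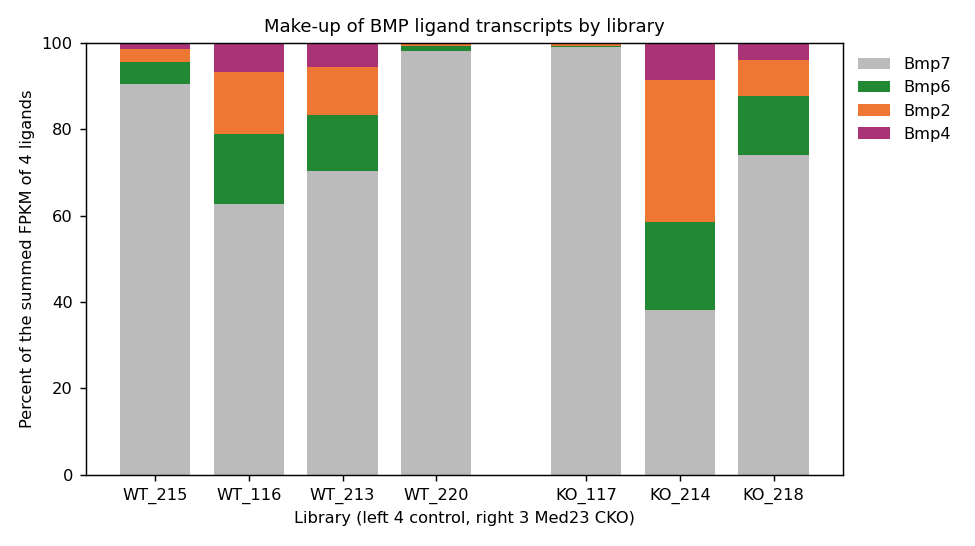
Share of each ligand in the summed FPKM of Bmp2, Bmp4, Bmp6 and Bmp7 (vertical axis, percent) for each library. Bmp7 takes between 38.2% (KO_214) and 99.0% (KO_117), both in Med23 CKO, and the control libraries lie between.

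Markers of several cell types moved with the ligands across libraries. The 8 microglia and macrophage markers summed to 6.10 to 33.6 FPKM in control, and to 6.77, 146 and 24.9 FPKM in KO_117, KO_214 and KO_218. The 7 endothelial markers summed to 7.18 to 59.8 FPKM in control, and to 5.90, 95.8 and 32.0 FPKM in the same Med23 CKO mice. The 9 mural cell and fibroblast markers, which include Cspg4 of oligodendrocyte precursors, summed to 48.4 to 97.7 FPKM in control and to 53.7, 356 and 60.1 FPKM in Med23 CKO. Cspg4 alone had 47.2 FPKM in KO_117 and 51.0 FPKM in WT_220, most of the mural sums there (53.7 and 59.7 FPKM). It had 6.43 FPKM in WT_116, where that sum was lowest. The sum with Cspg4 therefore did not follow Bmp2, Bmp4 and Bmp6 at its low end. In KO_214, where Bmp2, Bmp4 and Bmp6 were highest, all 3 sums were at their highest too. Single markers were highest in KO_214 for 6 of 7 tested microglial, 7 of 7 endothelial and 8 of 9 mural and fibroblast genes, beside 3594 of all 14151 genes. In WT_220 and KO_117 the microglial sum was lowest, and the 6 oligodendrocyte lineage markers summed to 1075 and 647 FPKM there against 1763 to 4063 FPKM in the other libraries. The 8 neural stem cell markers summed to 3688 FPKM in KO_117 and 3659 FPKM in WT_220, the highest sums, and to 1653 FPKM in KO_214, the lowest, an order shared at both ends with Bmp7. Single stem cell markers did not all share this order. Nes, Fabp7 and Pax6 were lowest in KO_214, Sox2 and Vim in KO_218, and Sox9 and Hes5 in WT_116. Prom1 went against it, being highest in KO_214 and lowest in WT_220 (2.46 FPKM). The 5 astrocyte markers summed to 308 to 461 FPKM in control and 294 to 599 FPKM in Med23 CKO, and the 5 neuronal markers to 30.7 to 63.6 FPKM and 40.6 to 45.2 FPKM. The astrocyte sum joined markers that ran differently across libraries. Gfap had 321 FPKM in KO_214 against 19.4 FPKM in KO_117 and 17.8 FPKM in WT_220. Aqp4 was likewise highest in KO_214 and lowest in KO_117. In contrast, Aldh1l1 was highest in WT_220 (197 FPKM). S100b was highest in WT_116 and lowest in KO_117, and Slc1a3 was highest in WT_215 and lowest in WT_116. No marker was at 0 in any library, and the part of these cell types in the ligand levels was not tested.

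**Figure D3:**
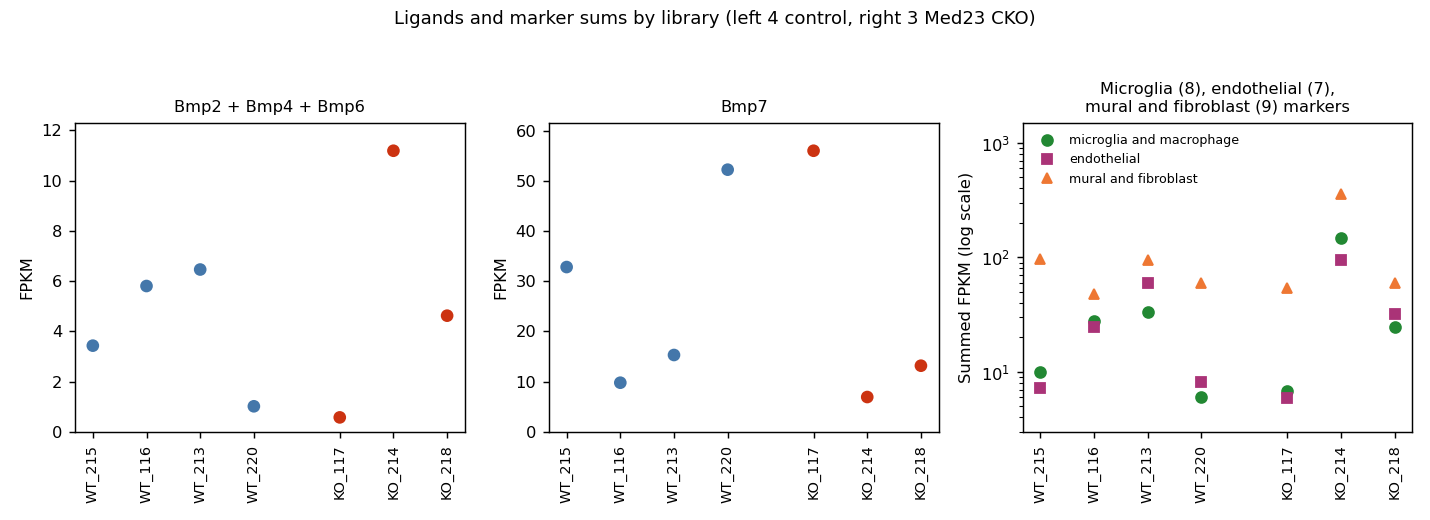
Summed FPKM of Bmp2, Bmp4 and Bmp6 (left), FPKM of Bmp7 (middle) and summed FPKM of markers of 3 cell types (right, log scale) in each library, with 4 control (blue at left and middle) and 3 Med23 CKO (red) libraries. KO_214 has the highest Bmp2, Bmp4 and Bmp6 sum (11.2 FPKM), the highest marker sums and the lowest Bmp7 (6.93 FPKM).

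Among the secreted antagonists, chordin, which holds BMPs until proteases of the Bmp1 and tolloid family cut it, showed the order closest to Bmp7. Chrd measured 1.73, 0.714, 0.976 and 1.55 FPKM across controls against 3.21, 1.46 and 0.550 FPKM across Med23 CKO. Its 3 highest libraries, KO_117, WT_215 and WT_220, were the 3 highest of Bmp7, and the groups overlapped. The difference was 0.20 (95% interval -0.65 to 1.05, exact permutation p = 0.686).

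Noggin, the antagonist best known in the adult hippocampus, was a low transcript. Nog measured 0.805, 0.469, 0.483 and 0.894 FPKM across controls against 0.491, 1.01 and 0.102 FPKM across Med23 CKO. The Med23 CKO values again reached above and below the control range, and the difference was -0.15 (95% interval -0.75 to 0.45, exact permutation p = 0.657).

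Follistatin binds activins most tightly and some BMPs as well. Fst measured 0.570, 0.579, 0.769 and 0.514 FPKM across controls against 0.0376, 1.51 and 0.323 FPKM across Med23 CKO. The 4 control values lay close together and all within the Med23 CKO range, and the difference was -0.087 (95% interval -0.82 to 0.64, exact permutation p = 0.743). Grem1, which encodes gremlin, had 0.525, 0.0330, 0.0310 and 0.0324 FPKM in control and was listed at 0 in KO_117 and KO_218 with 0.795 FPKM in KO_214. It was therefore above 0.1 FPKM in 2 libraries, 1 of each group, and no fold is given.

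Bambi and Twsg1 had the highest differences of the 9 tested genes, although Twsg1 (0.33) lay close to Bmp2 (0.32). Bmp2 was above Twsg1 after quantile normalization (0.38 against 0.34) and with a pseudocount of 0.1 (0.41 against 0.34). It was above Twsg1 without WT_116 (0.48 against 0.38), without WT_213 (0.51 against 0.39) and with the first digit as covariate (0.35 against 0.34) as well. It was above both Bambi and Twsg1 without KO_117 (0.85), without KO_218 (0.42) and in mice numbered in the 200s (1.01). Bambi, a receptor-like protein without a kinase that blocks BMP and TGF-beta receptors and is itself a BMP target, measured 1.35, 1.49, 1.84 and 0.727 FPKM across controls against 1.25, 3.15 and 2.43 FPKM in Med23 CKO. KO_214 and KO_218 were above every control library and KO_117 was below 3 of the 4. The difference was 0.46 (95% interval -0.21 to 1.124, exact permutation p = 0.2), and limma gave an unadjusted p of 0.0352 without KO_117 (difference 0.71) and of 0.0312 after quantile normalization (difference 0.50). Without KO_214 the difference was 0.27 (limma unadjusted p = 0.397), and the unadjusted p was above 0.05 in 14 of the 17 alternatives.

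Twsg1, twisted gastrulation, binds BMPs together with chordin and can either block or release them. It measured 22.7, 23.8, 24.5 and 16.0 FPKM across controls against 22.5, 33.8 and 26.6 FPKM across Med23 CKO. KO_214 and KO_218 were above every control library here too, and KO_117 was below 3 of the 4. The difference was 0.33 (95% interval -0.18 to 0.85, exact permutation p = 0.257), and it was above 0 under all 17 alternatives tried, from 0.18 to 0.51. Twsg1 and Bambi put the 7 libraries in the same order. Twsg1 made up 81.0% to 88.6% of the summed FPKM of the 6 antagonists and modulators in every library, so the make-up on the antagonist side varied less than that of the ligands.

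The direction of most differences rested on single libraries. Without KO_214, Bmp2 had a difference of -0.32 and Bmp7 of 0.26. Without KO_117, Bmp4 had 0.30, Bmp6 0.52, Chrd -0.17 and Fst 0.18. Without KO_218, Nog had 0.067 and Fst 0.0088. Leaving out a control library turned Bmp4 (0.053 without WT_116, 0.092 without WT_213), Bmp6 (0.042 and 0.080 in the same order) and Bmp7 (0.036 without WT_220). Bambi and Twsg1 kept a difference above 0 with any 1 library left out, from 0.27 to 0.71 and from 0.18 to 0.46. Their lowest values were those without KO_214, the library with the highest microglial, endothelial and mural marker sums.

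The mouse numbers fall into a pair in the 100s (WT_116 and KO_117) and 5 in the 200s, and the labels do not say what the first digit stands for. In the pair, Bmp7 was 2.40 higher in KO_117 than in WT_116 on the log2 scale. In the 200s it was 1.54 lower in Med23 CKO (difference -1.54, limma unadjusted p = 0.026 with 3 control and 2 Med23 CKO libraries). All Med23 CKO values of Bmp7 lay below all control values there, and those of Bambi and Twsg1 lay above all control values. The share of all genes separated in this way was not calculated, so nothing is drawn from it. Bmp6 was 1.58 lower in KO_117 than in WT_116 (difference -1.58) and 0.63 higher in Med23 CKO within the 200s. Bmp2 differed by -1.22 in the pair and 1.01 in the 200s, and Bmp4 by -1.01 and 0.39. The pair has 1 library of each group and gives no test, and the opposite signs were not tested against each other. Bambi differed by -0.14 in the pair and by 0.74 in the 200s (limma unadjusted p = 0.0484). Calls like those of Bmp7 and Bambi were frequent in the 200s. There limma gave 1374 of the 14151 tested genes a p below 0.05 with a lower Med23 CKO mean, and 445 with a higher mean. With all 7 libraries these counts were 141 and 71.

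**Figure D4:**
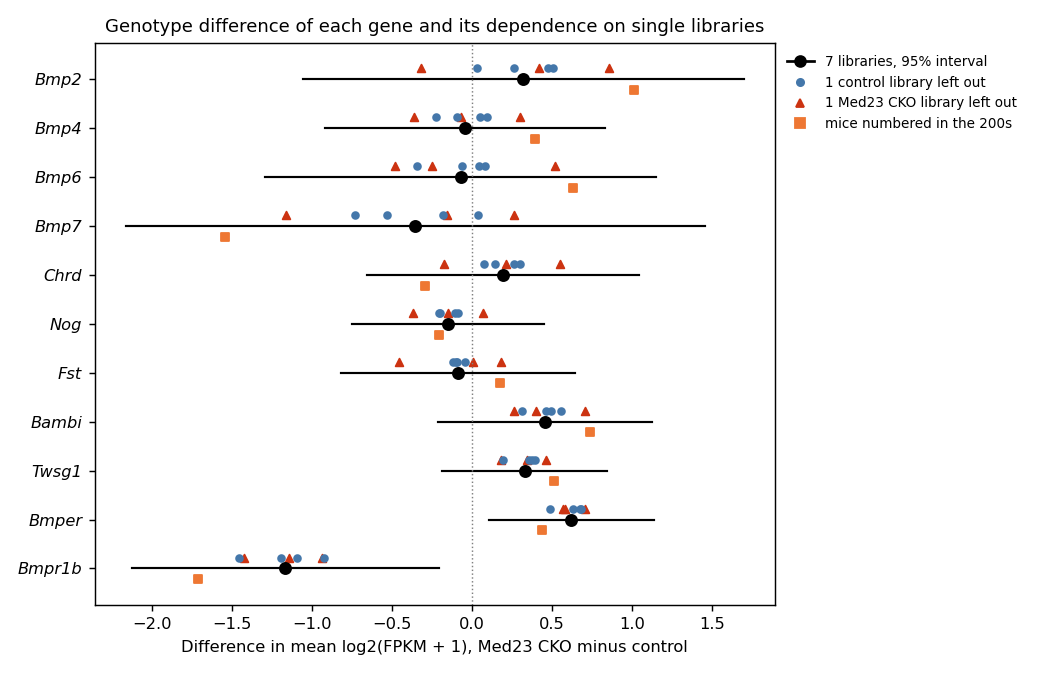
Difference in mean log2(FPKM + 1), Med23 CKO minus control (horizontal axis), for 9 members and for Bmper and Bmpr1b, with limma's 95% interval (black), the values with 1 library left out (blue circles, control, and red triangles, Med23 CKO) and those of mice numbered in the 200s (orange squares), set above or below the line for legibility only. The interval of each of the 9 members includes 0, and Bmp7 is at -1.54 in the 200s.

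Of 63 other genes listed for the pathway, related ligands such as activin subunits included, 44 passed the filter. By limma an unadjusted p under 0.05 was reached by 1 gene with a higher and 1 with a lower mean, against 0.502% and 0.996% of all genes. Neither passed the adjusted threshold (limma, adjusted p = 1). Of the 44, 35 had a higher mean in Med23 CKO, beside 6196 of all 14151 genes. KO_214 was the highest library for 24 of the 44, beside 3594 of all genes. The median difference of the 44 was 0.17, and it was -0.046 without KO_214. Among the genes under the filter, Gdf3, a ligand, was listed at 0 in all controls and had 0.0249, 0.0433 and 0.0387 FPKM across Med23 CKO, and no fold is given. Bmper, on chromosome 9 of GRCm38 from 23223076 to 23485200, encodes a secreted chordin-like protein that binds BMPs and can either restrain or aid them. It measured 3.10, 1.78, 3.16 and 2.76 FPKM across controls against 5.03, 4.90 and 3.98 FPKM across Med23 CKO. All Med23 CKO values were above all control values, as in 0.784% of all genes. The difference was 0.62 (95% interval 0.10 to 1.14, exact permutation p = 0.0286, the smallest that 4 against 3 allow). It stayed above 0 under all alternatives, from 0.42 to 0.78, and its unadjusted p exceeded 0.05 without KO_117 (difference 0.57), without KO_214 (0.58), without WT_116 (0.49), with array weights (0.42) and in the 200s alone (0.44).

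The gene that was lower was Bmpr1b, a type I receptor. Its values were 5.35, 1.97, 4.17 and 7.96 FPKM across controls against 2.45, 1.35 and 0.757 FPKM across Med23 CKO. Only WT_116 fell within the Med23 CKO range, and the difference was -1.17 (95% interval -2.13 to -0.21, exact permutation p = 0.0857). It was below 0 under all alternatives, and its unadjusted p exceeded 0.05 without KO_214 (difference -1.14), without KO_218 (-0.93), without WT_215 (-1.09) and without WT_220 (-0.93).

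No gene of these roles other than Bmper and Bmpr1b passed the unadjusted threshold. In 7 tested ligands outside the 4, 5 had a higher and 2 a lower mean in Med23 CKO, with a median difference of 0.30. The 7 were Bmp3, Bmp5, Gdf10, Gdf11, Inha, Inhba and Inhbb, so they include inhibin and activin subunits and are not all BMPs. The most abundant were Gdf11 (9.39 ± 2.74 FPKM in control, SD, n = 4, and 8.71 ± 2.37 FPKM in Med23 CKO, n = 3) and the activin subunit Inhbb (5.80 ± 3.90 and 8.21 ± 5.67 FPKM). Of 10 further extracellular antagonists and modulators, Bmper included, 8 had a higher mean, with a median difference of 0.33. Of the 10, 6 were highest in KO_214, beside 3594 of all 14151 genes. The most abundant were Fstl1, a follistatin-like protein, with 9.54 to 31.2 FPKM in control and 12.4, 114 and 27.8 FPKM in KO_117, KO_214 and KO_218, and Nbl1, with 18.7 ± 4.41 FPKM in control and 24.5 ± 11.9 FPKM in Med23 CKO. Among the 4 tested proteases, Bmp1, which cuts chordin, had 38.7 ± 2.57 FPKM in control and 39.3 ± 15.9 FPKM in Med23 CKO, and Furin, which cuts the ligand precursors, had 11.9 ± 1.74 and 14.9 ± 5.64 FPKM.

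Most listed receptors, Smads and targets passed the filter: 10 of 11 receptors and co-receptors, 7 of 8 genes of Smad transduction and 6 of 7 targets. Of 10 tested receptors and co-receptors, Bmpr1b included, Bmpr1a (24.7 ± 3.90 FPKM in control, SD, n = 4, and 29.6 ± 3.83 FPKM in Med23 CKO, n = 3) and Bmpr2 (17.9 ± 3.49 and 19.7 ± 3.43 FPKM) were the most abundant. Of 7 genes of Smad transduction, these were Smad5 (41.0 ± 15.1 and 25.5 ± 10.8 FPKM) and Smad4 (26.9 ± 2.30 and 27.7 ± 7.38 FPKM). Of 6 target genes, they were Id2 (85.0 ± 9.58 and 95.3 ± 20.1 FPKM) and Id3 (50.5 ± 34.9 and 59.0 ± 31.1 FPKM), and the median difference of the targets was 0.27. Of those targets, 4 were highest in KO_214, beside 3594 of all 14151 genes, and their median without KO_214 was not calculated. For each of the 6 genes named in this paragraph the groups overlapped.

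**Figure D5:**
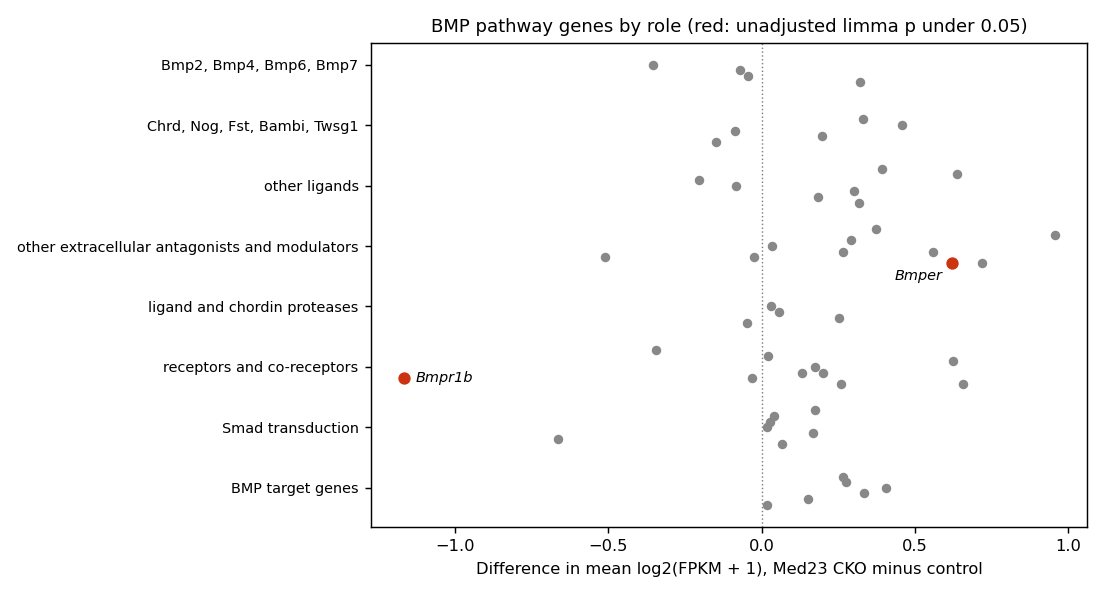
Difference in mean log2(FPKM + 1), Med23 CKO minus control (horizontal axis), of each tested gene by role, with points set apart vertically for legibility only. Bmper (0.62) and Bmpr1b (-1.17), in red, are the genes with an unadjusted p under 0.05.

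The genes whose profile over the 7 libraries was closest to each member's were found by the mean absolute difference of centred log2(FPKM + 1), for the 8 members whose values spanned at least 1 on that scale. Those nearest to Bmp7 were Syce2 (0.086), Ppp1r14b (0.095) and Mcm3 (0.098), a subunit of the replicative helicase. Mcm3 had 84.6 FPKM in KO_117 and 9.79 FPKM in KO_214. Those nearest to Bmp6 were Erbb3 (0.073), a neuregulin receptor, Ghr (0.081), the growth hormone receptor, and Fgf13 (0.088). For Bmp4 they were Celsr1 (0.058), D1Ertd622e (0.068) and Wdr60 (0.068), and for Bmp2 Hspb2 (0.081), Rab32 (0.094) and Ostf1 (0.10). No gene was shared between the lists of the 4 ligands. Chrd was nearest to Fzd2 (0.050), a Wnt receptor, Irf2bpl (0.074) and Klf7 (0.096), and Fst to 4933412E12Rik (0.067), Pwwp2b (0.070) and A930005H10Rik (0.083). Bambi was nearest to Usp25 (0.064), St3gal5 (0.074) and Lrrk2 (0.076), and Twsg1 to Nus1 (0.048), Rbpj (0.051), the DNA-binding partner of Notch, and Pcyox1 (0.057).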

How the data were processed

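RNA from primary neurospheres was measured in 7 libraries, 4 control and 3 Med23 CKO, grouped by sample title. The authors removed adapters with cutadapt, mapped the reads with TopHat (default settings, mm10) and had Cuffdiff calculate FPKM per gene, and the deposited FPKM were used as they stand. The gene annotation is not given in the sources used here. The authors' columns of group means, log2 fold change, test score, p-value and q-value were not used, and 0 other columns of samples were found. By the study's account, each library holds the neurospheres grown from 1 mouse. The library kit named in the methods does not mark strand, so where an opposite-strand gene overlaps (Txndc5 and 4930579J19Rik with Bmp6, Thpo with Chrd, Gm15217 and Gm15222 with Bmp4, Gm47040 with Fst) reads of shared bases cannot be told apart.

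Values were analysed as log2(FPKM + 1), a pseudocount of 1, with limma 3.58.1 (trend) in R 4.3.3, for the 14151 genes that averaged 0.5 FPKM or more, with two-sided tests and Benjamini-Hochberg adjustment. A two-sided exact permutation test of single genes used all 35 ways to divide the libraries, with 0.0286 as its smallest p. Genes named are the 10 members, other pathway genes with an unadjusted p under 0.05 or with groups apart (Gdf3, under the filter, among them), the 2 most abundant genes of each role, Med23 and the 3 genes nearest to a member's profile. The members and lists were chosen with earlier results of these data known. The fit was tested on simulated data. The alternatives were a pseudocount of 0.1, no filter, a filter at 1 FPKM, quantile normalization, median centring, limma without trend or robust, array weights, a covariate for the mouse number's first digit, mice in the 200s only, and each library left out in turn. Gene positions are from GENCODE M21 on GRCm38, which is mm10. No interval that needs depth is given, and the number of libraries limits the precision. Figures were drawn in Python 3.11.15 with matplotlib 3.10.9.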

Additional observations from a re-analysis of the deposited data

Results flagged for a closer look

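Among the control libraries, Grem1 stood out in WT_215. It had 0.525 FPKM there and between 0.0310 and 0.0330 FPKM in the 3 others, so the gap from WT_215 to the next library was 0.995 of the range of the 4 on the log2 scale, above Dixon's 95% critical value for 4 samples. Chance flags about 1 in 20 such groups, and 12 genes were examined. In Med23 CKO the single library with Grem1 above 0 was KO_214 (0.795 FPKM).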

How the results depend on the processing

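By the methods controls were littermates, but the labels give no litters, so no paired analysis was made. Under the 17 alternatives Twsg1, Bambi, Bmper, Bmpr1b and Med23 kept their direction. Alternatives outside single libraries turned the sign of Bmp4 (0.39), Bmp6 (0.63), Chrd (-0.29) and Fst (0.18) in the 200s alone, and of Bmp6 (0.059) and Chrd (-0.31) with array weights. With each library left out, differences ranged from -0.32 to 0.85 for Bmp2, -0.36 to 0.30 for Bmp4, -0.48 to 0.52 for Bmp6, -1.16 to 0.26 for Bmp7, -0.17 to 0.55 for Chrd, -0.45 to 0.18 for Fst and -0.37 to 0.067 for Nog.

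At an unadjusted p under 0.05, 1 member was higher in the 200s alone and after quantile normalization (Bambi in both) and 1 lower in the 200s (Bmp7), and with each library left out 0 to 1 were higher and 0 lower. The members' median was 0.39 in the 200s, 0.26 with a mean FPKM of at least 1 (6 members tested) and -0.37 with a pseudocount of 0.1, and -0.32 to 0.30 with each library left out. Of other pathway genes, 1 was higher and 1 lower as reported, 0 and 4 with array weights, 1 and 3 in the 200s, and 0 to 3 on either side with each library left out. Their median was 0.17, -0.013 with array weights, and -0.046 to 0.22 with each library left out. Over all genes, 71 were higher and 141 lower, 193 and 887 with array weights, 445 and 1374 in the 200s, 140 higher without a filter, and 45 to 354 higher and 70 to 410 lower with each library left out. At an adjusted p, 0 to 1 genes passed with each library left out, and 1 did without KO_214 and without KO_218. The share of higher genes among those with an unadjusted p under 0.05 was 33.5%, and it was 45.3% after quantile normalization and 45.4% after median centring. The causes were not tested. Bmp4, Nog, Fst and Grem1 lie under 1 FPKM on average, where depth, unknown here, limits what can be told apart.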

Other observations

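Several ligands outside the 4 ran across the libraries as Bmp2, Bmp4 and Bmp6 did, and were picked after their values were seen. Gdf10, a ligand of the BMP3 branch, measured 1.77, 1.87, 3.20 and 0.489 FPKM across controls against 0.113, 5.33 and 3.97 FPKM across Med23 CKO, in the order used above. Bmp5 had its highest value in KO_214 (2.19 FPKM) and its lowest in KO_117 (0.0967 FPKM). Bmp3 followed with 1.76 FPKM in KO_214 and 0.120 FPKM in KO_117. For each of these genes the highest and the lowest library were both Med23 CKO.

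Inhba and Crim1 were high in KO_214 alone, and were likewise picked after their values were seen. Inhba, an activin subunit, had 5.33 FPKM in KO_214 and at most 0.863 FPKM elsewhere. Crim1, a membrane protein that binds BMPs, had 26.6 FPKM in KO_214 and 4.43 to 10.7 FPKM elsewhere.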
